A study of Homo sapiens with 6 samples.

Results

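Polycomb repressive complex 2 (PRC2) was followed through 10 of its subunits in A549, an established cell line from a human lung adenocarcinoma, after silencing of the long noncoding RNA LINC00525. The members are the catalytic subunits EZH2 and EZH1, the core subunits EED, SUZ12, RBBP4 and RBBP7, and the accessory subunits JARID2, MTF2, PHF19 and AEBP2. Every probe set annotated to exactly 1 of these symbols was taken, which gave 38 of the 49372 probe sets of the table. All 10 genes were measured, among 18132 genes with a probe set of their own.

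Expression was measured on 6 one-colour arrays, 3 of control cells and 3 of LINC00525-silenced cells, called knockdown arrays here. All cells grew in the same serum-supplemented medium, controls received a scrambled sequence, and silencing is described as by small interfering RNA although the array titles carry the prefix "sh". In the genotype entries LINC00525 stands only at knockdown replicate 1, with LINC00526 at replicate 2 and LINC00527 at replicate 3, while all titles say LINC00525 and were followed. Whether the replicates were grown separately is not given, and the p-values therefore reflect the spread of these 6 samples alone, possibly a technical one. A single scrambled control is the only control, and no second sequence against LINC00525 is named.

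PRC2 is the complex that methylates lysine 27 of histone H3, a mark of silenced chromatin. EZH2 or its paralog EZH1 carries the catalytic SET domain, and neither is active without EED, which binds the methyl mark, and SUZ12, the scaffold. RBBP4 and RBBP7 are histone-binding proteins shared with other chromatin complexes, and the accessory subunits steer the complex to DNA in alternative forms, 1 with a Polycomb-like protein (MTF2, PHF19 or PHF1) and 1 with JARID2 and AEBP2. EZH2 is known as the enzyme of dividing cells and EZH1 as the one of resting cells. The series title places the silenced transcript at chromatin structure and at p21, the product of CDKN1A, which inhibits cyclin-dependent kinases.

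The transcript meant to be silenced and the gene of the title were checked first. LINC00525 read 3.86, 3.74 and 3.97 on the control arrays and 3.67, 3.45 and 3.54 on the knockdown arrays (log2 signal), so the groups did not overlap. The change was -0.30 ± 0.075 (SE, limma adjusted p = 0.0420), at a signal near background: of the array's 17 Tag controls, probe sets with no human target, 1 lay above it on the control arrays. CDKN1A rose by 0.55 ± 0.057 and 0.60 ± 0.056 at its 2 probe sets (limma adjusted p = 0.00104 and 0.000667). The 10 epithelial and A549 marker genes had control means of 5.43 to 12.83, and the 9 measured leukocyte, endothelial and fibroblast genes had control means of 2.32 to 6.25, with at least 1 Tag probe set above 6 of them. None of the latter passed the test, and of the former KRT8, an epithelial keratin, fell by 0.15, a call kept in 0 of 6 fits that left out an array.

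The promoters of the subunits that changed, and of EZH1 for contrast, are shown because the members did not move alike. Each run covers 250 bases before and 50 after the most upstream listed start of transcription, 5' to 3' on the strand of the gene (RefSeq, build GRCh38.p14), and capitals mark matches to an E2F site. EZH2 and EZH1 come first, then PHF19 and EED.
EZH2, chr7:148884242-148884541, minus strand: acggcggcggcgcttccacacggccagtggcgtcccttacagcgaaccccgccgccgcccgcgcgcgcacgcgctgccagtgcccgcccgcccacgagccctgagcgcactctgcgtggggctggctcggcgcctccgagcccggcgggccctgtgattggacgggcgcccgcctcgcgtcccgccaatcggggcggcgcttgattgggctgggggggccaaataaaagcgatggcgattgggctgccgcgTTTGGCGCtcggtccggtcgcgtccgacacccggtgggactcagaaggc
EZH1, chr17:42744991-42745290, minus strand: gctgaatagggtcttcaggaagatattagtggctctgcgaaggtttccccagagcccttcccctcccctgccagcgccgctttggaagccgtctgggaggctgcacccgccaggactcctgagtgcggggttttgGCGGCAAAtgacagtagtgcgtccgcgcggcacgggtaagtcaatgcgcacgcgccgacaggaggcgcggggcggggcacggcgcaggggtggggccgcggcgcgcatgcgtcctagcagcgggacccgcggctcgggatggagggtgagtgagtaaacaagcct
PHF19, chr9:120877139-120877438, minus strand: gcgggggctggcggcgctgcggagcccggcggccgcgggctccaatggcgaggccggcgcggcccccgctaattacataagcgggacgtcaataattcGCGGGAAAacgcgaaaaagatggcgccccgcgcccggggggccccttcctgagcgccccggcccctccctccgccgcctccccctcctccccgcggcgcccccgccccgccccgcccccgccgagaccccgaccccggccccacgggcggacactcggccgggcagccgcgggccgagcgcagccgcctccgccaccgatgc
EED, chr11:86244503-86244802, plus strand: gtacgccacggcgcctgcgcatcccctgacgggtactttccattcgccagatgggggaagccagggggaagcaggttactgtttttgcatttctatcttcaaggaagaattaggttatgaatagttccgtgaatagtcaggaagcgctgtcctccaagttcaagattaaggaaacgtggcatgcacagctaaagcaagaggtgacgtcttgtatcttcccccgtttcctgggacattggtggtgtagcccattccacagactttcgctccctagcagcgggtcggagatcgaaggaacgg
E2F factors drive genes of the G1/S transition. The letters searched were TTTCCCGC, TTTGGCGC, TTTCGCGC and TTTGCCGC on both strands, and 911 of 27305 promoters of this length (3.34%) held at least 1. Among the 10 members 6 held one: EZH2, EZH1, SUZ12, MTF2, PHF19 and AEBP2. The windows of the 10 were 52.3% (EED) to 79.7% (PHF19) G or C, and the share over all promoters was not matched for this. The EZH2 match, TTTGGCGC, began at position 2 counted from the start site, and the PHF19 match, TTTCCCGC on the opposite strand, began at position -152. The EZH1 match, TTTGCCGC on the opposite strand, began at position -115. The group with a match thus held subunits that fell and subunits that did not, and EED, which fell, had none in this window. CCAAT, the NF-Y box, was found on either strand in 7 of the 10 promoters and 35.7% of all, 4 times in EZH2 and 0 times in EZH1. TTTGAA, the cell cycle homology element, was found in 1 member, SUZ12, and in 15.5% of all promoters. These are matches of letters and not measured sites.

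Across the complex, 7 of the 38 probe sets were lower on the knockdown arrays and 0 were higher (limma, Benjamini-Hochberg adjusted p under 0.05 over all 49372 probe sets). For single probe sets this is the meaning of called, rose and fell here. For results with 1 probe set a gene, which include the related lists, these words rest on a separate fit adjusted over the 18132 genes. A gene can pass in 1 of the 2 fits only. At an unadjusted limma p under 0.05, in either direction, there were 15 of the 38, beside 12211 of all 49372. Of all probe sets, 5.25% were called lower and 4.64% higher. The 7 belong to EZH2 (2 of 3 probe sets), PHF19 (3 of 3), EED (1 of 4) and MTF2 (1 of 9). All knockdown arrays lay below all control arrays for 15 of the 38 and above them for 2, against 16.8% and 11.9% of all probe sets. The median log2 change was -0.08 over the 38 and -0.01 over the table. Of the 38, 28 had a mean above that of every Tag control. Among these 6 were lower and 0 higher, where 8.27% and 6.97% of all probe sets above that level were called, and their median was -0.12 against -0.02. Because the arrays were normalized to one distribution, a change here is one against the bulk of the genes.

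**Figure D1:**
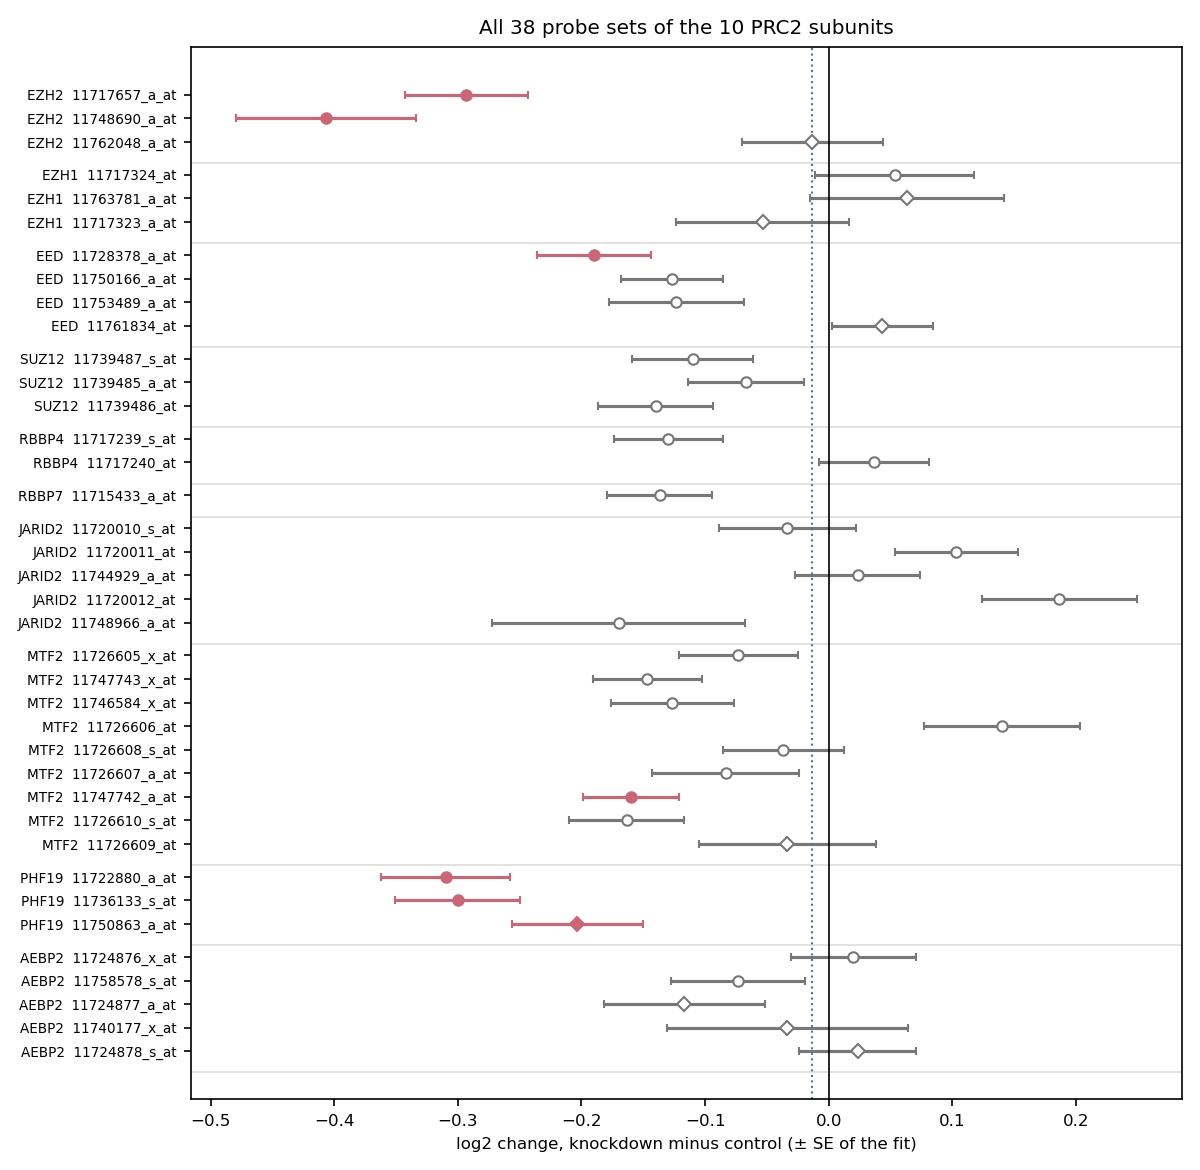
Log2 change (knockdown minus control, x axis) with its standard error for each of the 38 probe sets, grouped by gene and ordered by signal within a gene. Filled red points passed the test, open points did not, diamonds have at least 1 Tag control probe set above their control mean, and the dotted line is the median of all probe sets (-0.01); the red points belong to EZH2, EED, MTF2 and PHF19.

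EZH2, the main methyltransferase of the complex in dividing cells, was lower on every knockdown array. Its brightest probe set (11717657_a_at) read 7.60, 7.61 and 7.62 on control arrays and 7.34, 7.38 and 7.23 on knockdown arrays. The groups stood apart, and the fall of 0.29 ± 0.050 (SE, limma adjusted p = 0.0103) is one in which the signal dropped by 18.4%. In RNA from whole cultures, fewer dividing cells and less EZH2 RNA in each cell cannot be told apart. A second probe set (11748690_a_at) read 5.65, 5.77 and 5.82 against 5.33, 5.47 and 5.22, a fall of 0.41 ± 0.073 (limma adjusted p = 0.0130). On both, knockdown replicate 3 was the lowest array and knockdown replicate 2 the highest of its group. The third (11762048_a_at) lay near background, with 1 of 17 Tag probe sets above it, and changed by -0.01 ± 0.057 with overlapping groups. The call of the brightest probe set held whichever array was left out (adjusted p of 0.0198 to 0.0454). That of the second was lost without control replicate 2 or 3 (adjusted p = 0.0567 and 0.0542), and without variance moderation both were lost (adjusted p = 0.0556 and 0.0974).

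EZH1, the paralog that can take the place of EZH2 in the complex, did not pass the test at any of its 3 probe sets. The brightest (11717324_at) read 6.49, 6.39 and 6.36 on control arrays and 6.42, 6.59 and 6.39 on knockdown arrays, a change of 0.05 ± 0.065 (limma adjusted p = 0.677). The groups overlapped, with knockdown replicate 2 highest of the 6. The other probe sets, at control means of 4.22 and 2.94 with 1 and 6 of 17 Tag probe sets above them, changed by 0.06 and -0.05. Scaled to the hybridization controls, which lowers every gene by 0.28, EZH1 turned to -0.23 (adjusted p = 0.0224).

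The change of EZH2 was set against that of EZH1 within each array, which cancels any shift common to both. EZH2 minus EZH1 was 1.11, 1.22 and 1.26 on control arrays (1.197 ± 0.078, SD, n = 3) and 0.92, 0.79 and 0.84 on knockdown arrays (0.85 ± 0.066, SD, n = 3). All knockdown arrays lay below all control arrays, and the difference of -0.35 ± 0.059 (SE) had an exact permutation p = 0.1 (2-sided), the smallest that 3 arrays against 3 allow. The 2 signals come from different probes, so only the change of their difference is read, not which gene is more abundant. Of the 9 pairings of an EZH2 with an EZH1 probe set, 8 gave a value below 0 and 6 had groups that did not overlap. The pairings ran from -0.47 to 0.04, and the 3 with overlapping groups all used the near-background EZH2 probe set.

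**Figure D2:**
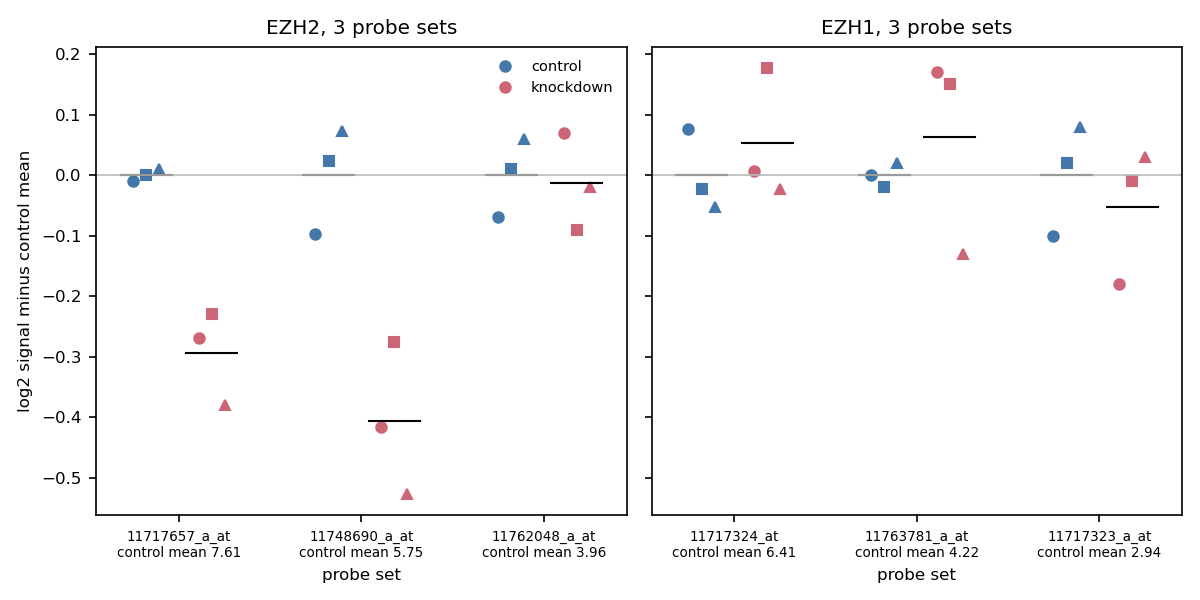
Log2 signal of each array minus the control mean of its probe set (y axis) for the 3 EZH2 and 3 EZH1 probe sets, with control arrays in blue, knockdown arrays in red (circle, square and triangle for replicates 1, 2 and 3) and group means as bars. At the first EZH2 probe sets the knockdown mean lies 0.29 and 0.41 below control, while at EZH1 the means differ by 0.05, 0.06 and -0.05.

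Among the core partners, EED passed the test at 1 probe set and SUZ12, RBBP4 and RBBP7 at none. EED, the reader of the methyl mark, read 8.71, 8.78 and 8.70 on control and 8.50, 8.53 and 8.59 on knockdown arrays at its brightest probe set, a fall of 0.19 ± 0.046 (limma adjusted p = 0.0391). Other EED probe sets read -0.13 ± 0.041 and -0.12 ± 0.055, each with all knockdown below all control arrays and adjusted p = 0.0987 and 0.210 (limma), and the dimmest, with 12 of 17 Tag probe sets above it, read 0.04. Of the 6 fits that left out an array the EED call was kept only in that without knockdown replicate 3, and leaving out control replicate 1, 2 or 3 or knockdown replicate 1 or 2 gave adjusted p of 0.0817 to 0.133. With the replicate block its adjusted p was 0.0785, after cyclic loess 0.0594, and with the gene's probe sets averaged the change was -0.10 (adjusted p = 0.0852).

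SUZ12, the scaffold without which the complex falls apart, had changes of -0.11, -0.07 and -0.14 at its 3 probe sets (limma adjusted p = 0.213, 0.437 and 0.104). At its brightest it read 9.01, 9.03 and 9.10 against 8.96, 8.98 and 8.87, so every knockdown array was below every control array by a small margin. RBBP7 has a single probe set, which read 9.45, 9.52 and 9.49 against 9.34, 9.33 and 9.38, a change of -0.14 ± 0.042 (limma adjusted p = 0.0849). RBBP4, its near-identical paralog, read 8.96, 9.06 and 9.03 against 8.89, 8.90 and 8.87 at a probe set whose suffix _s_at marks probes that can match more than 1 gene, a change of -0.13 ± 0.044 (limma adjusted p = 0.110). Its other probe set, without that suffix, read 0.04 ± 0.044 (limma adjusted p = 0.677) with overlapping groups. The brightest SUZ12 and JARID2 probe sets, the second of PHF19 and some of MTF2 and AEBP2 carry the suffix _s_at too. The brightest MTF2 and AEBP2 probe sets carry _x_at, another suffix of probes that may match other sequences. With 1 probe set a gene and limma's prior variance fitted to signal level, RBBP4, RBBP7 and SUZ12 were called (adjusted p = 0.0074, 0.0024 and 0.038), with the same changes. That variance model also called more of all genes lower than the main fit did, as given further below.

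**Figure D3:**
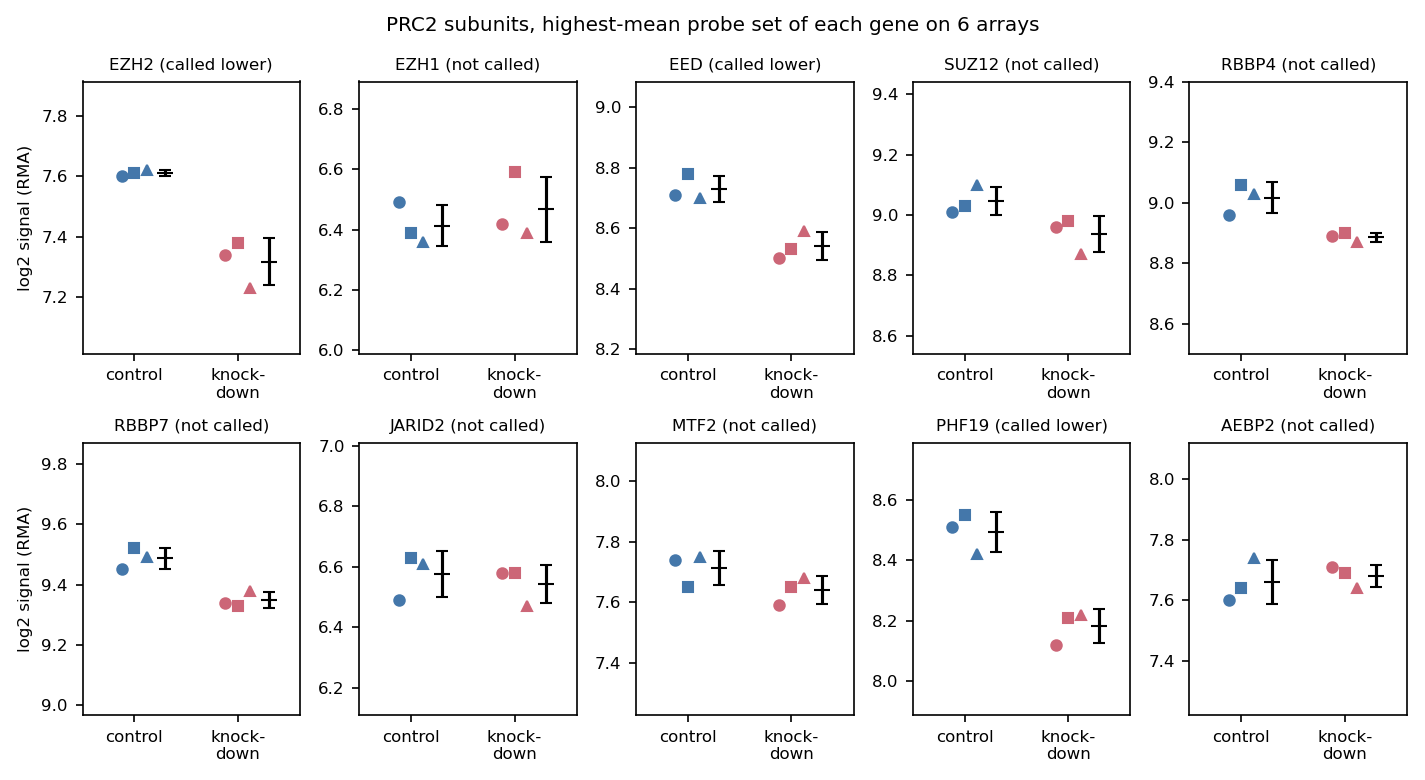
Log2 signal (y axis, a window of 0.9 units in each panel) of the highest-mean probe set of each of the 10 subunits, with circle, square and triangle for replicates 1, 2 and 3 and bars for the mean and SD of 3 arrays. In EZH2, EED, SUZ12, RBBP4, RBBP7 and PHF19 the red knockdown points all lie below the blue control points, and in EZH1, JARID2, MTF2 and AEBP2 they overlap. Of all 18132 genes, 17.9% had all knockdown below all control arrays and 12.9% all above. SUZ12, RBBP4 and RBBP7 were not called.

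Of the accessory subunits, PHF19 was the only one lower at every probe set. PHF19, a Polycomb-like protein whose Tudor domain reads methylated lysine 36 of histone H3, read 8.51, 8.55 and 8.42 on control and 8.12, 8.21 and 8.22 on knockdown arrays. The fall of 0.31 ± 0.052 (limma adjusted p = 0.00983), is one in which the signal dropped by 19.3%. At the second probe set it read 5.98, 5.90 and 5.89 against 5.55, 5.65 and 5.67, a fall of 0.30 ± 0.051 (limma adjusted p = 0.010). The third, near background with 1 Tag probe set above it, fell by 0.20 ± 0.053 (limma adjusted p = 0.0497), a call that, of the 6 fits without 1 array, only that without knockdown replicate 1 kept. Both brighter calls held on omitting any single array (adjusted p of 0.0181 to 0.0459) and were lost without variance moderation (0.0596 and 0.0567).

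MTF2, the other Polycomb-like member, had 9 probe sets that did not move alike. The brightest read 7.74, 7.65 and 7.75 against 7.59, 7.65 and 7.68, a change of -0.07 ± 0.048 (limma adjusted p = 0.404) with overlapping groups. The 1 that passed (11747742_a_at) read 5.98, 5.99 and 5.98 against 5.83, 5.83 and 5.81, a fall of 0.16 ± 0.039 (limma adjusted p = 0.0386) a call that none of the 6 fits without 1 array kept (0.0811 to 0.120). Its SD was 0.0058 on control and 0.012 on knockdown arrays, the latter the smallest of the 9. In all, 8 of the 9 lay below 0, from -0.16 to -0.03, and 1 (11726606_at) at 0.14 ± 0.063 (limma adjusted p = 0.217).

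JARID2 and AEBP2, which mark the other form of the complex, had no called probe set. JARID2, a DNA-binding cofactor that lacks demethylase activity, ranged from -0.17 to 0.19 over 5 probe sets, with 3 above 0. The highest (11720012_at) read 5.43, 5.40 and 5.62 on control and 5.64, 5.69 and 5.68 on knockdown arrays, all knockdown above all control arrays (0.19 ± 0.063, limma adjusted p = 0.107). It was called higher when control replicate 3 was left out (0.26, adjusted p = 0.0333) and under no other setting tried. AEBP2, a zinc finger protein, read 7.60, 7.64 and 7.74 against 7.71, 7.69 and 7.64 at its brightest probe set (0.02 ± 0.050, limma adjusted p = 0.855). Its 5 probe sets ran from -0.12 to 0.02, and 3 of them had 1, 6 and 17 of the 17 Tag probe sets above them.

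With 1 probe set a gene, the brightest, 3 of the 10 subunits fell (EZH2, EED and PHF19) and 0 rose, where 6.83% of the 18132 genes were called lower and 5.77% higher (limma, adjusted over all genes). At an unadjusted limma p under 0.05, in either direction, there were 6 of the 10, beside 4814 of the 18132. The median change was -0.12 over the 10 and -0.01 over all genes. Over the 6 arrays the signals of EED, SUZ12, RBBP4, RBBP7 and PHF19 correlated with that of EZH2 at Pearson r of 0.83, 0.90, 0.91, 0.84 and 0.88, those of JARID2 and MTF2 at 0.46 and 0.56, and those of EZH1 and AEBP2 at -0.16 and -0.06. These coefficients rest on 6 arrays in 2 groups and share the group difference. By the same measure the genes most like EZH2 were VPS29, TRAIP, SMPD1, SPIN3 and TMA7 (r of 0.9958 to 0.9988), and 287 genes had r above 0.95. Of these 5 only TRAIP was called (-0.33 ± 0.050, limma adjusted p = 0.00612).

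Partners of PRC2 outside the 10 were mixed, with 1 lower and 1 higher of 5, where 6.83% of all genes were lower and 5.77% higher. Of the 5 other partners listed, PHF1, the third Polycomb-like protein, rose by 0.19 ± 0.042 (limma adjusted p = 0.0278), and LCOR, whose locus encodes an accessory protein of the complex, fell by 0.22 ± 0.051 (limma adjusted p = 0.0324). Each call was kept in 1 of 6 fits that left out an array, and PHF1 turned to -0.09 when scaled to the hybridization controls. EPOP, LCORL and the inhibitory protein EZHIP read 0.01, -0.01 and -0.05 and were not called, although 1 of the 2 LCORL probe sets was higher over all probe sets. The demethylases that remove the PRC2 mark, KDM6A and KDM6B, read 0.08 ± 0.050 and 0.27 ± 0.073 (limma adjusted p = 0.369 and 0.0538), the latter near background with 1 Tag probe set above it. Thus PHF19 and PHF1, alternative partners of the same core, were called in opposite directions at this scale. Over all probe sets PHF19 was lower at 3 of 3, while PHF1 was higher at only 1 of 2.

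Polycomb repressive complex 1 (PRC1), which binds the PRC2 mark and ubiquitinates histone H2A, was measured at 20 of 24 listed genes. There 3 fell, 2 rose and 15 were not called, with a median of 0.00, where 6.83% of all genes were lower and 5.77% higher. PHC2, a polyhomeotic subunit, rose by 0.50 ± 0.046 (limma adjusted p = 0.000617) and still by 0.22 when scaled to the hybridization controls. CBX7, a chromodomain reader of the mark, rose by 0.15, but no fit that left out an array kept the call and the scaled value was -0.13. The variant subunit PCGF3 fell by 0.26 ± 0.038, and the readers CBX2 and CBX6 by 0.22 and 0.16. In the 6 fits that left out an array PHC2 and PCGF3 were called in 6, CBX2 in 4 and CBX6 in 1.

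Most genes known as Polycomb targets were not called, as was so for genes at large. Of 39 HOX genes, the classical targets, 27 were measured, 1 fell and 0 rose (of all genes, 6.83% and 5.77%), with a median of -0.05, and 10 of the 27 had at least 1 Tag probe set above them. Measured means here a probe set with exactly 1 symbol. HOXA2 was the only gene of the HOXA cluster among the 27, so these counts leave out nearly all of that cluster. The one that fell was HOXC6 (-0.22 ± 0.052, limma adjusted p = 0.0316), called in 2 of the 6 fits that left out an array. Of 43 listed developmental regulators and tumour suppressors 38 were measured, 3 fell, 3 rose and 32 were not called, beside the same 6.83% and 5.77% of all genes, with a median of -0.04. CDKN1A, the gene of the series title, is 1 of the 3 that rose (0.55 as above), and the list was chosen with earlier results of these data known. The transcription factors FOXD3 and GATA6 rose by 0.32 ± 0.047 and 0.25 ± 0.047 (0.04 and -0.03 when scaled to the hybridization controls), and the call was kept in 6 and 4 of the 6 fits that left out an array. FOXD3 was near background, with 1 Tag probe set above it. WNT5A, FOXA2 and BMP4 fell by 0.24, 0.19 and 0.14, and in the 6 fits that left out an array the calls were kept in 1, 1 and 0. TBX3, a T-box transcription factor, read -0.16 and was not called at its brightest probe set, while 4 of its 6 probe sets were lower over all probe sets. CDKN2A, the INK4 tumour suppressor that Polycomb silences in many cells, lay near background at 3.79 and changed by -0.05. Of these 38 genes 23 had at least 1 of the 17 Tag probe sets above them.

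Genes of DNA replication were lower on the same arrays as EZH2 and PHF19. Of 24 listed S-phase genes 23 were measured, 20 fell and 0 rose (of all genes, 6.83% and 5.77%), with a median of -0.24. The list ran from -0.72 to -0.10, a wide range that holds the changes of EZH2 (-0.29) and PHF19 (-0.31). It also holds those of EED (-0.19), SUZ12 (-0.11), RBBP4 (-0.13) and RBBP7 (-0.14). CCNE2 (cyclin E2), the replication factor GINS2 and the helicase subunit MCM4 fell most, by 0.72 ± 0.11, 0.46 ± 0.048 and 0.40 ± 0.045. Leaving out 1 array gave 10 (without control replicate 2), 12 (control replicate 1), 13 (control replicate 3 or knockdown replicate 2), 14 (knockdown replicate 1) and 18 calls (knockdown replicate 3). That this list was lower is known from earlier results of these data, and its part in the change of the PRC2 subunits was not tested.

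**Figure D4:**
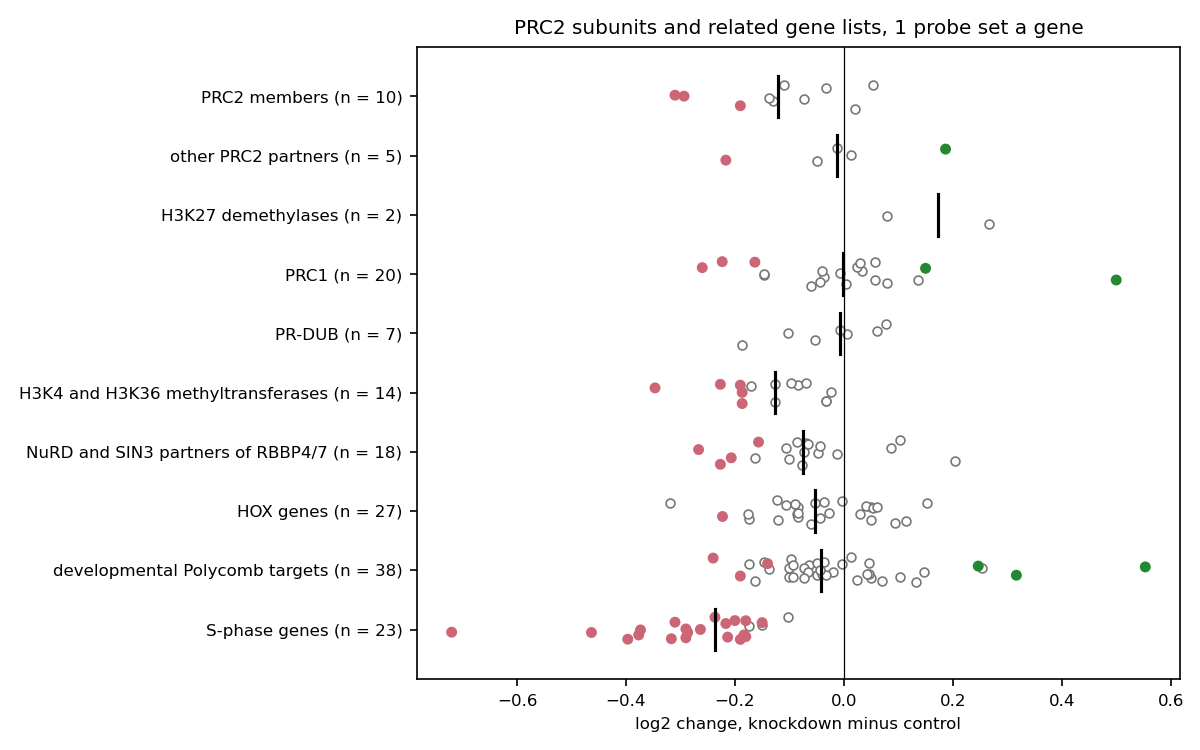
Log2 change (knockdown minus control, x axis) of each measured gene in the PRC2 members and 9 related lists, with 1 probe set a gene, red points for genes called lower, green for higher, open for not called and black bars for list medians; vertical scatter within a list has no meaning. The bar of the PRC2 members stands at -0.12, that of the S-phase genes at -0.24 and that of PRC1 at 0.00.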

How the data were processed

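Total RNA of 6 A549 samples was labelled with biotin and hybridized to one-colour arrays, per the labels' protocols. The authors deposited log2 values after RMA (background correction, quantile normalization, summary into probe sets), per the submitters' processing notes, which name nothing else. Which software and version made them is not stated in the sources used here. The values have 2 decimals and array medians of 5.10 to 5.11, and were not normalized again. Such values hide a shift common to most genes, and they understate differences near background. The design text mentions RNA sequencing, but the table holds array values.

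Symbols came from the platform annotation: 44994 of the 49372 probe sets had 1, 1832 several and 2546 none listed; 44967 of the 44994 were found by gene identifier in the GRCh38.p14 gene table. The main test was limma 3.58.1 under R 4.3.3 (functions lmFit and eBayes, 2-sided, 6 arrays, no covariate), run once over all probe sets, which gives the values of the members, and once over the 18132 genes, each at its probe set of highest mean, which gives the values of the other genes. EZH2 minus EZH1 had an exact permutation test over its 20 assignments of arrays. The fits were tested on simulated data, and figures were drawn with matplotlib 3.10.9. From each related list, genes in a direction with 5 or fewer calls were named, otherwise the 3 that changed most. The members and lists were chosen with earlier results of these data known. EPOP, LCORL, EZHIP, KDM6A, KDM6B, CDKN2A and TBX3 were named outside this rule, after their values were seen.

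The number of arrays limits the precision. Pearson r was 0.9983 to 0.9988 between arrays of the same group, and 0.9960 to 0.9963 across the groups. Same-numbered arrays of the groups hardly deviated together (correlations of 0.093, 0.063 and -0.007), and no pairing was assumed. The alternatives were other scalings, variance models, probe set filters, the replicate block and leaving out each array.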

Additional observations from a re-analysis of the deposited data

How the results depend on the processing

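EZH2 and PHF19, 1 probe set a gene, stayed lower and past the threshold under all 16 alternatives that held them, and EED under 8 of 17. The count of PRC2 probe sets called lower (7) changed with scale, variance model and probe set filter. Hybridization and poly-A controls were higher on knockdown arrays by 0.28 and 0.14. Scaled to the hybridization controls, 35 PRC2 probe sets and 10 PRC2 genes were lower, of 40272 probe sets and 15085 genes lower in all (561 and 232 higher). Scaled to the poly-A controls, it was 23 and 8, of 20499 and 8397 (1194 and 497 higher). With a variance trend 6 PRC2 genes were lower, of 4757 probe sets and 2063 genes in all (4744 and 2049, and again 6, when also robust). Without moderation 1 PRC2 probe set was lower, of 1186 probe sets and 703 genes (1115 and 611 higher). Without dim probe sets, where fewer were tested, 12 of 28 PRC2 probe sets were lower, beside 4078 of all 27810 probe sets tested. In that setting 5 of the 10 PRC2 genes were lower, with 11364 genes tested in all. Without _s_at, _x_at and _a_at probe sets, which leaves EZH2, PHF19, RBBP7 and AEBP2 none, 0 PRC2 probe sets and 0 PRC2 genes were lower, of 298 probe sets and 235 genes (354 and 258 higher). With the replicate block 4 PRC2 probe sets were lower, of 1598 probe sets and 747 genes. Leaving out 1 array gave 3 to 5 PRC2 probe sets lower and 0 to 1 higher, 912 to 1894 probe sets lower and 1332 to 1814 higher, and 472 to 792 genes lower and 632 to 834 higher. Cyclic loess gave 909 genes lower and 1290 higher against 1239 and 1046. Turned in sign were EZH1 (-0.23 and -0.088 under the 2 scalings, -0.0083 to 0.092 on leaving out an array), AEBP2 (-0.26 and -0.12, -0.036 with probe sets averaged, -0.010 to 0.060 on leaving out an array), JARID2 (0.022 averaged, -0.077 to 0.0033 on leaving out an array), and, without the suffixed probe sets, EED (0.043), RBBP4 (0.037), JARID2 (0.10) and MTF2 (0.14). For these the cause was not tested, beyond the shift that scaling applies. The EZH2 minus EZH1 change was -0.26 with probe sets averaged, -0.46 and -0.47 with the second EZH2 probe set, -0.24 with the dimmest EZH1 probe set, and -0.067, -0.077 and 0.040 with the near-background EZH2 probe set. With the replicate block it was -0.35 with a smallest possible p of 0.25. Of 374 counts for the related lists, 259 stayed within 1.5 times.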

Other observations

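Enzymes that write marks opposed to PRC2, taken with their partners, lay below 0 at every gene measured. KMT2B, NSD3 and ASH2L did so by less than their SE (-0.02 ± 0.040, -0.03 ± 0.045 and -0.03 ± 0.041). Of 15 listed methyltransferases of lysine 4 and lysine 36 of histone H3 and their partners 14 were measured, all 14 lay below 0 (median -0.13), 5 fell and 0 rose (limma adjusted p under 0.05 over all genes). Of all 18132 genes 56.4% lay below 0, 6.83% fell and 5.77% rose. NSD1, a lysine 36 methyltransferase, fell by 0.35 ± 0.042 (limma adjusted p = 0.00248) and had 4 of 8 probe sets called lower. SETD1B, NSD2, KMT2C and WDR5 fell by 0.23, 0.19, 0.19 and 0.19. In the 6 fits that left out an array the call was kept in 6 for NSD1, 4 for NSD2, 3 for SETD1B and 1 each for KMT2C and WDR5.

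RBBP4 and RBBP7 also serve the deacetylase complexes NuRD and SIN3 and the histone chaperone CAF-1. Of 18 measured genes of these complexes 4 fell and 0 rose, with a median of -0.08, beside the same shares of all genes. Both large CAF-1 subunits were among them, CHAF1A by 0.27 ± 0.041 (limma adjusted p = 0.00648, called in 6 of 6 fits that left out an array) and CHAF1B by 0.23 ± 0.045 (2 of 6), with the deacetylase HDAC1 (-0.16, 0 of 6) and the remodeller CHD3 (-0.21, 1 of 6). Of 8 listed genes of the H2A deubiquitinase PR-DUB 7 were measured: ASXL1, ASXL2, ASXL3, FOXK1, FOXK2, MBD5 and MBD6. The catalytic subunit BAP1 is not among them, so nothing is read here on the enzyme itself. Of these 7 genes 0 were called by limma, with a median of -0.01, and 3 had at least 1 Tag probe set above them. Over all probe sets ASXL2 was lower at 1 of 5.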
